A study of Mus musculus with 2 samples.

Results

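Genes of water and ion movement across epithelia, 10 in all, were followed in cultured mouse liver progenitor cells: 7 aquaporins (Aqp1, Aqp3, Aqp4, Aqp5, Aqp8, Aqp9 and Aqp11), the chloride channel genes Cftr and Ano1, and the secretin receptor gene Sctr. They were taken by name, as the 15 gene probes whose gene name in the scanner files is 1 of these 10. Once outlier spots were dropped, the array held 41158 gene probes and 20095 named genes. The cells were expandable hepatoblasts of C57BL/6 mouse liver, grown on Matrigel or laminin in a defined DMEM/F12 medium. Its agents were EGF, the GSK3 inhibitor CHIR99021, E-616452, which blocks TGF-beta type I receptor signalling, and the lipids LPA and S1P, beside insulin-transferrin-selenite, nicotinamide, an ascorbic acid derivative and albumin. Both groups shared strain, tissue and medium and differed in passage, 5 or 20, with 1 array each. The passages came from independent experiments per the labels, so passage and experiment cannot be told apart, and the labels do not give the coating used for either. No difference below has a replicate check, and no p-value can be given.

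Markers of several cell types were read to describe the cells. Of 10 hepatoblast markers 7 were measured, that is, well above background at 1 or both passages. They included Afp, the fetal liver albumin relative, and the liver transcription factor genes Hnf4a and Foxa2, each measured at both passages, whereas Dlk1, Igf2 and H19 were measured at neither. Among these 7, 1 was at least 2-fold higher at passage 20 and 2 were lower: Gpc3, a fetal liver surface protein gene, by at least 9.49-fold, and Lin28b, a fetal RNA-binding protein gene, by 3.32-fold. Of 12 biliary markers 11 were measured, among them the duct keratin genes Krt7 and Krt19 and the progenitor factor gene Sox9. Afp, Hnf4a, Foxa2, Krt7, Krt19 and Sox9 are named as defining genes, after their values were seen. Of 12 hepatocyte markers, 11 did not reach that level at either passage, Alb and Ttr among them, and neither did any of 9 endothelial or 7 erythroid markers. Markers of other tissues were measured too, 11 of 14 for intestine and stomach and 5 of 11 for mesothelial, stellate and fibroblast cells. Signals at passage 5 were 181476 for the lectin gene Reg3b and 171624 for the mesothelial gene Msln of these lists, 220953 for Krt19 and 6373 for Afp. The markers thus do not settle the identity of the cells. Over all 20095 named genes 58.7% were measured at 1 or both passages, which is the share to set beside these counts. By probe and single array, the share above background was 45.5% at passage 5 and 46.1% at passage 20. Signals are given first as the scanner software reported them, and then as log2 levels relative to each array's 75th percentile, which stood at a signal of 1085 at passage 5 and 853 at passage 20. Every difference is passage 20 minus passage 5.

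Aquaporins are membrane pores that let water pass along an osmotic gradient; the aquaglyceroporins among them, such as Aqp3, Aqp7 and Aqp9, also pass glycerol and other small solutes. In bile ducts, secretin binds its receptor on cholangiocytes and raises cAMP, protein kinase A opens the chloride channel CFTR, and chloride leaving the cell is exchanged for bicarbonate, with water following through aquaporins. Nucleotides in bile act through purinergic receptors and calcium on the chloride channel ANO1. Hepatocytes move water and solutes through Aqp8 and Aqp9.

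The array reads each gene through 60-base oligonucleotides, and what is known of a member depends on where its probes lie. Aqp9 has 3 probes: the following pair shows how they sample the transcript, the first lying at 1 site and the second split over 10465 bases of genome (mm9), so that it crosses an exon junction.
Aqp9, probe at 70980489 to 70980548 of chromosome 9: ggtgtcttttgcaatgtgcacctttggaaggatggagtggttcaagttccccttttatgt
Aqp9, probe at 70960173 to 70970637 of chromosome 9: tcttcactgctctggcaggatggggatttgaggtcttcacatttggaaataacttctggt
Of the single probes of the next 3 members, to which results are tied, 30 bases each are shown; the Aqp1 stretch holds the polyadenylation signal AATAAA, in capitals, which 1 of the 15 member probes and 4.78% of all gene probes contain.
Aqp5, first 30 bases: aggagagagatagatggttcgtcgagtgcc
Aqp3, first 30 bases: atctggagctatgacccttgactgggggct
Aqp1, last 30 bases: tcttatggtaagaaAATAAAggacaatgac
The probe of Aqp5 lies at chromosome 15, 99425131 to 99425189, that of Aqp3 at chromosome 4, 41039962 to 41040021, and that of Aqp1 at chromosome 6, 55298480 to 55298539 (mm9). Whether they lie in coding sequence or an untranslated region was not determined here, since the gene table used is of another build.

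Aqp5, the water channel of secretory glands and of some duct cells, had the largest measured difference of the members. Its signal was 20402 ± 2040 (scanner software error) at passage 5 and 962 ± 98.9 at passage 20, well above background on both arrays. The level was thus 4.23 log2 at passage 5 and 0.17 at passage 20, a difference of -4.06 ± 0.21 log2, or 16.7-fold lower. The ± is the error the software assigns to the spots and covers array reading only. Of 11804 measured genes, 16 had a lower value or bound than Aqp5. Among 10 other settings with a filter on dim probes the difference lay between -4.37 and -3.95 log2, all of them lower at passage 20.

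Aqp1, the water channel that sits in both membranes of cholangiocytes and is also abundant in red cells and endothelium, was bright at both passages and differed little. Its signal was 8408 ± 841 at passage 5 and 5605 ± 561 at passage 20. After scaling the difference was -0.24 ± 0.20 log2, or 1.18-fold lower, and it stayed within 2-fold under the same 10 settings (-0.55 to -0.23). The erythroid and endothelial markers did not clear background at either passage, as stated above. Which cells the Aqp1 signal came from was not tested. Aqp11, an aquaporin of intracellular membranes, had signals of 911 ± 94.6 and 788 ± 81.8, a difference of 0.14 ± 0.21 log2. The sign of the Aqp11 difference turned negative with median centring (-0.17) and with spike-in scaling (-0.09), so no direction can be given for it.

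The remaining water channels were dim. Of 3 Aqp4 probes, 2 lay in the background of both arrays and stood at the software's surrogate values, 24.0 and 24.6 at passage 5 and 20.5 and 21.7 at passage 20. The third Aqp4 probe read 25.8, again a surrogate, at passage 5 and 147 ± 26.9, well above background, at passage 20. That gives at least 1.72-fold more at passage 20 by this probe, which does not reach 2-fold, and it rests on 1 probe of 3. Aqp8, the channel of hepatocyte canalicular and inner mitochondrial membranes, read 71.2 and 84.3. Neither Aqp8 spot was well above background, although the software called both positive and significant against background, so no difference is given.

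The aquaglyceroporin genes Aqp3 and Aqp9 each cleared background at passage 5 and failed to at passage 20. Such a pair gives a bound: the brighter level is set against the higher of the dim probe's own level and the lowest level of any probe well above background on that array (-3.17 log2 at passage 20, -3.32 at passage 5). Where the dim probe's own level is the higher, the value is the plain ratio to a reading not well above background and no lower limit. Aqp3, the glycerol channel of basolateral membranes in many epithelia, read 272 ± 37.9 at passage 5 and 35.3 at passage 20, which makes it at least 2.26-fold lower. With normexp background correction, which works on the raw pixel means, the Aqp3 bound was only -0.58 log2 and no longer passed 2-fold.

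Aqp9, the glycerol and urea channel of hepatocytes, gave the same pattern with all 3 of its probes. The probe used read 638 ± 70.0 at passage 5 and 104 at passage 20, 4.82-fold lower. Its passage 20 level lay above the array minimum, so this is the plain ratio to a dim reading and not a lower limit. The 2 probes printed above read 147 ± 30.4 and 170 ± 33.2 at passage 5 and stood at surrogate values of 23.7 and 25.6 at passage 20. Before scaling, the 3 probes' signals were 6.13, 6.20 and 6.64 times higher at passage 5, but the bounds of the 2 dimmer probes were only 1.22-fold and 1.41-fold, because the array minimum lies close below their passage 5 levels. Averaging the values of all 3 probes, 1 plain ratio and 2 bounds, gives -1.02 log2 in place of -2.27, and normexp gave -1.37. Both still pass 2-fold. A further probe, outside the selection because it is named by the clone AK050325, covers bases 70959174 to 70959232 of chromosome 9 (mm9), inside the stretch of the Aqp9 probe used, and shares 56 of 60 bases with it. It was well above background on both arrays, at 617 ± 65.7 and 109 ± 22.6, a difference of -2.16 ± 0.34 log2 or 4.45-fold lower. By this probe, named after its values were seen, the difference rests on readings well above background on both arrays.

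**Figure D1:**
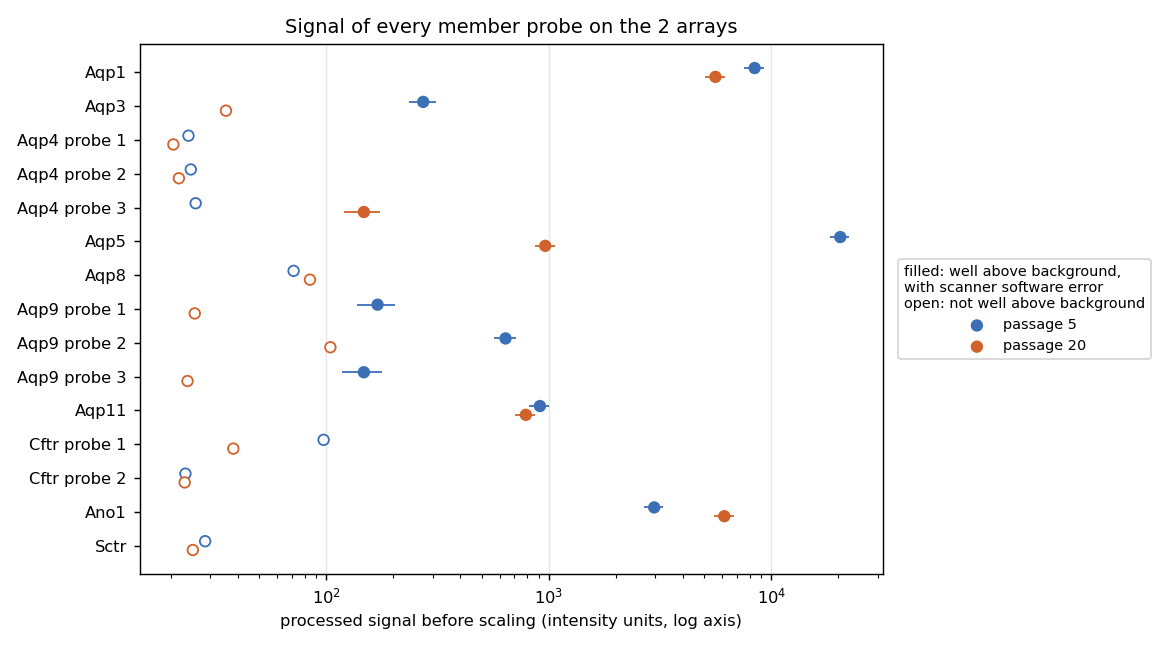
Processed signal of each of the 15 member probes before scaling (log axis, intensity units) at passage 5 (blue) and passage 20 (orange); filled points are well above background and carry the scanner software's error, open points are not well above background, and the first Cftr probe is shown by the median of its 10 spots. Aqp5 is far brighter at passage 5, Ano1 is brighter at passage 20, and the 3 Aqp9 probes are filled at passage 5 only.

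Ano1, the calcium-activated chloride channel, was the only 1 of the 10 members at least 2-fold higher at passage 20. Its signal was 2973 ± 299 at passage 5 and 6144 ± 615 at passage 20. On the scaled levels this is 1.45 against 2.85 log2, a difference of 1.39 ± 0.20 log2 or 2.63-fold higher. Of all measured genes, 168 had a higher value or bound than Ano1. The difference stayed above 2-fold in the 10 settings with a filter (1.08 to 1.40 log2) and is the smallest with median centring.

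Cftr, the cAMP-gated chloride channel that drives bicarbonate-rich secretion, did not count as well above background at either passage by the rule used, which asks for at least 50% of a probe's spots. One of its 2 probes was printed at 10 positions, which gives the only look at reading error within a member. The 10 spots read from 62.2 to 149 at passage 5, with a median of 97.1, and from 21.4 to 76.9 at passage 20, with a median of 38.1. Just 1 of the 10 counted as well above background at passage 5, and 0 did at passage 20, while 10 and 8 were called positive and significant against background. At every position the passage 20 spot had the lower processed signal, before and after scaling, although the ranges of the 2 arrays overlapped and 7 of the 10 passage 5 spots exceeded the brightest passage 20 spot. Before background subtraction the median pixel means of these spots were close, 333 at passage 5 and 327 at passage 20. Of the passage 20 values, 2 were surrogates. The mean difference after scaling was -0.94 log2, with spot SDs of 0.38 and 0.64 log2; it is below the level at which a difference is counted, and spots of 1 array are not replicates of a passage. The second Cftr probe, at chromosome 6, 18217739 to 18217798, read 23.2, a surrogate value, at passage 5 and 23.0 at passage 20, in the background of both arrays, where no difference could be seen.

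**Figure D2:**
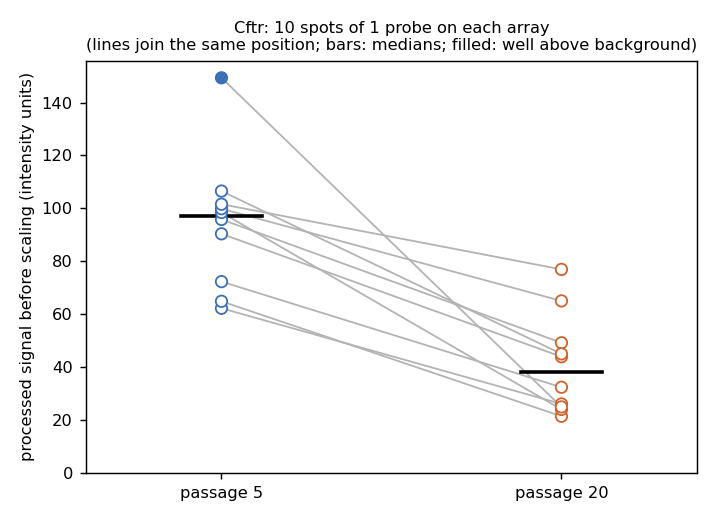
Processed signal before scaling of the 10 spots of 1 Cftr probe on each array (linear axis from 0), with lines joining spots at the same array position and black bars at the medians of 97.1 and 38.1. All 10 lines run downward, and a single spot, at passage 5, is filled as well above background.

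Sctr, the receptor through which secretin raises cAMP in cholangiocytes, was at surrogate values on both arrays, 28.5 and 25.1. Its only probe spans 1103 bases of genome at chromosome 1, 121950915 to 121952017 (mm9), and so crosses an exon junction. A missing signal of 1 probe does not show that the transcript was absent. The gene of the ligand, Sct, was well above background on both arrays, with signals of 4406 at passage 5 and 411 at passage 20, 8.43-fold lower. The ligand gene was thus measured and differed, whereas its receptor gene was not measured.

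Of the 10 members, 7 (70%) cleared background at 1 or both passages and count as measured, against 58.7% of all named genes. Of these 7 members, 1 (Ano1) was at least 2-fold higher. Lower by at least 2-fold were 3: Aqp5, Aqp3 as a bound and Aqp9 as a plain ratio to a dim reading. Over all 11804 measured genes the same call was made for 3.28% in the higher direction, 5.74% in the lower direction and 9.01% in either. The members' share is thus above that of all genes, but the list is short, it was drawn up with earlier results of these arrays known, and Aqp5 was among the genes already singled out. The median of the 7 measured members was -0.24 log2, against 0.07 for all measured genes. The RNA comes from whole cultures, so that fewer cells with a transcript and less of it per cell cannot be told apart.

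**Figure D3:**
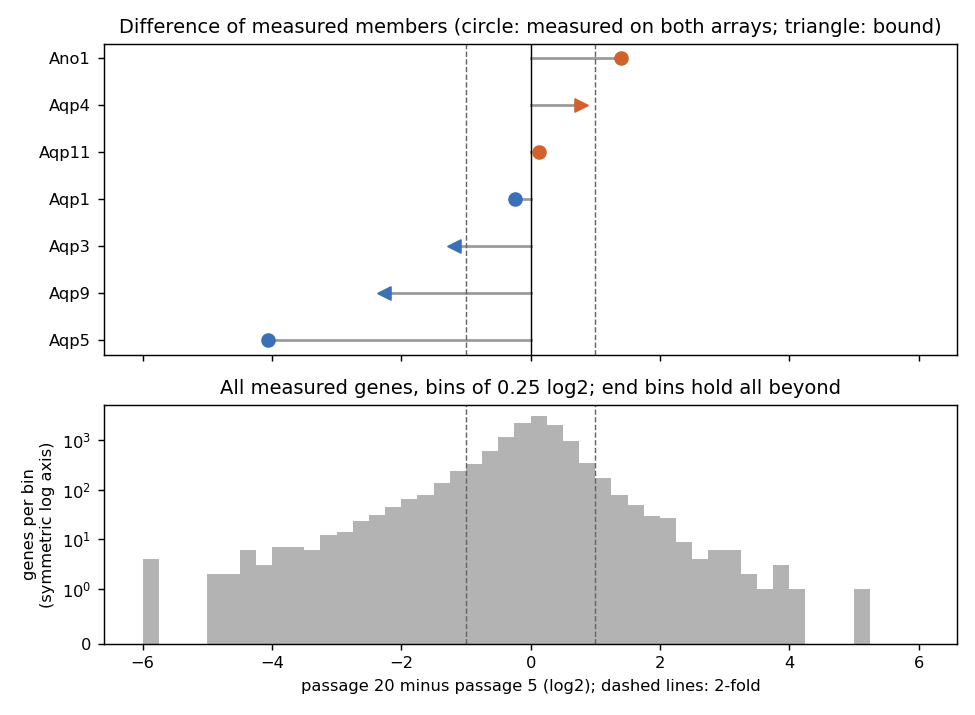
Upper panel: difference between passage 20 and passage 5 (log2) of the 7 measured members, as circles where both arrays were above background and as triangles where 1 was not; lower panel: number of genes per bin of 0.25 log2 over all measured genes (symmetric log axis). Aqp5 at -4.06 lies in the far lower tail, and Ano1 at 1.39 lies beyond the 2-fold line on the upper side. On the lower side Aqp3 lies beyond that line as a bound and Aqp9 as a plain ratio to a dim reading.

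Promoter sequences of the 4 members called at 2-fold are shown next, to set their base composition and motifs beside their values. They are the 250 bases before the first listed RefSeq start (GRCm38.p6), in the direction of the gene. Capitals mark matches, on either strand, to any of 6 motifs: the TATA box spelled TATAAA, the GC box spelled GGGCGG, the E-box spelled CACGTG, the cAMP response element half-site spelled TGACG, the AP-1 motif spelled TGANTCA and the TEAD motif spelled GGAATG.
Aqp5, chr15:99590778-99591027, plus strand: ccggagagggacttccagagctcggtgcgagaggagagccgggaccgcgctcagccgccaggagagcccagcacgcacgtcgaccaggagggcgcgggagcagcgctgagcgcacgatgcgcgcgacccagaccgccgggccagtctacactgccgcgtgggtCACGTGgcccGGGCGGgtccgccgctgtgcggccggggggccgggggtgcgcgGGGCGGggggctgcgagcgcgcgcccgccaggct
Aqp3, chr4:41098184-41098433, minus strand: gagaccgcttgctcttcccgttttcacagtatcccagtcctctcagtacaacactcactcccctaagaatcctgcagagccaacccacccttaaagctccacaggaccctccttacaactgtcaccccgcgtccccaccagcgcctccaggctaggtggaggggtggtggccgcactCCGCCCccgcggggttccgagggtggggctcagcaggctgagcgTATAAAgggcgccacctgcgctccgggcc
Aqp9, chr9:71163290-71163539, minus strand: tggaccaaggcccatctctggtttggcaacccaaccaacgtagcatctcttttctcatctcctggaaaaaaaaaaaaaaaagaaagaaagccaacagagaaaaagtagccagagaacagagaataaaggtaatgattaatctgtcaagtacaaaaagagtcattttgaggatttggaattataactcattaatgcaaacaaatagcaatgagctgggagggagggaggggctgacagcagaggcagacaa
Ano1, chr7:144738574-144738823, minus strand: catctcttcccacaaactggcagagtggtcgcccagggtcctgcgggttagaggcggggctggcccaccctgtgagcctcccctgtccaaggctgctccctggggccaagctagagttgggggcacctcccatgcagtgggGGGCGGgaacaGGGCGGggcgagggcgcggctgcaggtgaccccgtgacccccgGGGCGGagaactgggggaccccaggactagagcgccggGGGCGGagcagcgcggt
The Aqp5 stretch is 78.4% G and C, the Ano1 stretch 72.0% and the Aqp3 stretch 64.0%, against 40.4% for Aqp9 and a median of 52.4% over the 32851 promoters in the table. Ano1 holds 4 GC boxes, Aqp5 holds 2 and Aqp3 holds 1, and 32.7% of all promoters hold at least 1. The TATA box of Aqp3 starts 29 bases before the gene start, and 12.4% of promoters hold this motif. Aqp5 holds 1 E-box, 87 bases before its start, against 6.02% of promoters with one. None of these 4 stretches holds the cAMP half-site (17.8% of promoters), the AP-1 motif (6.75%) or the TEAD motif (12.6%); the second listed Aqp9 start has 1 AP-1 match, 24 bases before it. Of the 10 members 8 matched the promoter table. These are matches of letters and not binding sites.

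The wider secretion machinery was described with 9 lists of other genes. Of 180 listed genes on the array, 116 were measured (64.4%, against 58.7% of all named genes). Of these, 10 were at least 2-fold higher, 6 were at least 2-fold lower and 100 were not called. Thus 13.8% were called, against 9.01% of all genes. Among the 116, 10 were measured at passage 5 only and 6 at passage 20 only. A bound short of 2-fold does not show that the difference is within 2-fold. The median of the 116 was 0.11 log2. The split of the called genes depended on scaling and was 9 higher and 11 lower with median centring and 9 and 9 with spike-in scaling.

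Of the 5 other aquaporins, 2 were measured. Aqp7, an aquaglyceroporin best known from adipose tissue, was at least 4.95-fold higher at passage 20, with signals of 22.7 and 423. This is the opposite direction to Aqp3 and Aqp9, the other aquaglyceroporins, and it rests on 1 of its 2 probes. Aqp2, the vasopressin-regulated channel of the kidney, differed by 0.11 log2. Of the 4 measured anoctamins besides Ano1, 0 passed 2-fold; Ano6, a lipid scramblase, had the largest difference of the 3 measured at both passages, -0.59 log2, with its other measured probe at -1.10. Ano5, measured at passage 5 only, gives no more than a bound (-0.28 log2) and cannot be ranked against it.

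Other chloride channel genes differed in both directions, with 2 higher and 3 lower of 16 measured. Clca6, of the calcium-activated chloride channel regulator family, was 14.1-fold lower, with signals of 2243 and 126. Its relatives Clca1 and Clca2 were 2.97-fold and 2.90-fold higher, Clca4 differed by 0.28 log2, and Clca3 and Clca5 were not measured. All of these but Clca1 are named as relatives, after their values were seen. The voltage-gated channel gene Clcn2 was 3.63-fold lower, and both of its probes showed it (-1.86 and -1.83 log2). Clic5, of the chloride intracellular channel family, was 3.57-fold lower. Members of the CLCA family share sequence, and reads of 1 by another's probe were not tested.

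Genes of bicarbonate and proton transport had 1 higher and 2 lower of 10 measured. Slc9a2, a sodium-proton exchanger of apical membranes, was 27.3-fold lower, from a signal of 5981 to 172, by 1 of its 2 probes. The carbonic anhydrase genes Car9 and Car13 were at least 3.08-fold higher and 2.29-fold lower. Slc4a2, the chloride-bicarbonate exchanger of cholangiocytes, differed by -0.21 log2 and is named for its role, after its value was seen.

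Among genes of basolateral ion entry and potassium channels, 3 were higher and 0 lower of 13 measured. Fxyd3, a regulator of the sodium pump, was 3.21-fold higher, the potassium channel subunit gene Kcne3 at least 3.02-fold (both of its probes gave bounds, 1.57 and 1.59 log2) and the potassium channel gene Kcnk1 2.70-fold. Slc12a2, the sodium-potassium-chloride entry carrier of secretory epithelia, differed by -0.53 log2, and the calcium-gated potassium channel gene Kcnn4 by 0.02; both are named for their role, after their values were seen. The 2 measured genes of the epithelial sodium channel list, Scnn1a and Nedd4l, differed by 0.15 and 0.01 log2.

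Of 24 measured genes of secretin and cAMP signalling, 2 were higher and 1, Sct, was lower. Prkacb, a catalytic subunit of protein kinase A, was 3.66-fold higher by its brighter probe, but its other probe gave -0.21 log2. Ptger4, a prostaglandin E2 receptor gene, was 2.01-fold higher, at the edge of the threshold. Of 18 measured genes of purinergic and calcium signalling, 1 was higher and 0 lower: P2ry6, a receptor for uridine diphosphate, went from a signal of 299 to 891, 3.79-fold higher. None of the 27 measured scaffold and trafficking genes passed 2-fold; Stx3, a syntaxin of apical membrane fusion, came closest at -0.97 log2, with its probes ranging up to 0.81.

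**Figure D4:**
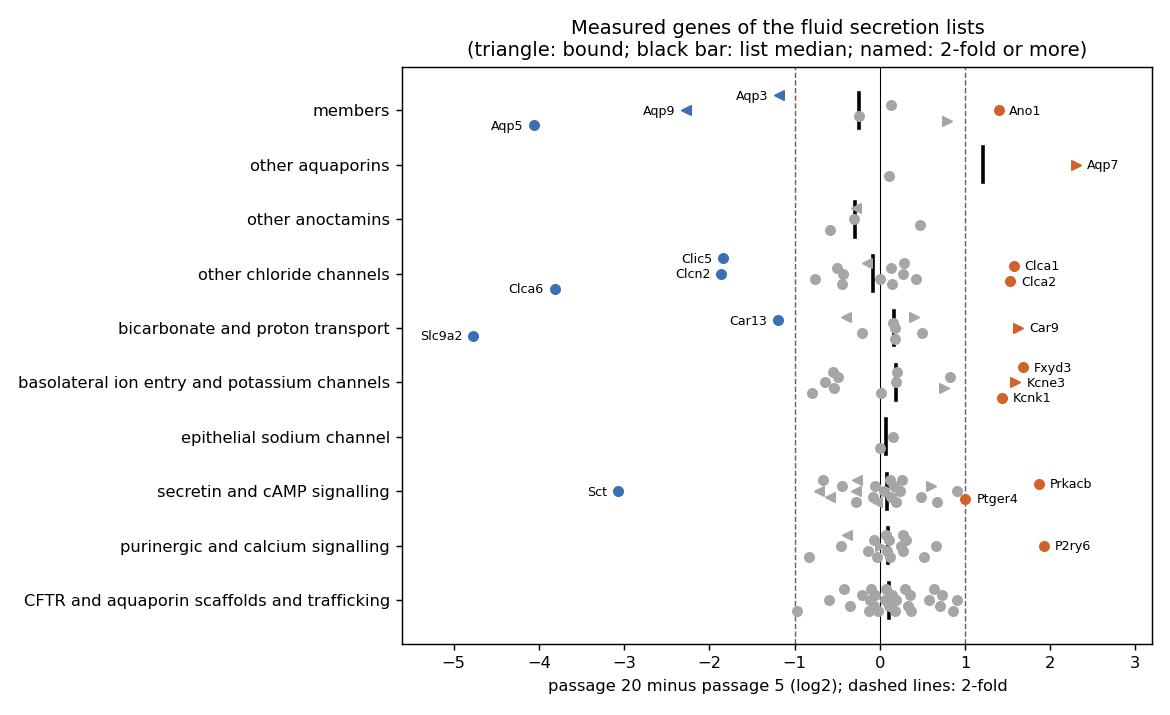
Difference between passage 20 and passage 5 (log2) of each measured gene, by list, with the 7 measured members in the top row; triangles are bounds or plain ratios to a dim reading, black bars are list medians and genes at 2-fold or more are named and coloured. Slc9a2, Aqp5, Clca6 and Sct stand far to the left, whereas no point is plotted beyond 2.31 on the right, where Aqp7 stands as a bound.

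Markers of epithelial types moved beside these genes. Of 11 measured intestine and stomach markers among 14, 8 were lower and 1 higher, and their summed level relative to the 75th percentile was 384 at passage 5 and 106 at passage 20. Most of that gap is Reg3b, an antimicrobial lectin gene: without it the sums were 217 and 104. Of 11 measured biliary markers among 12, 2 were higher: Spp1, 6.83-fold, and Pkhd1, 3.62-fold against a passage 5 reading not well above background. In the same list 3 were lower, among them Cldn7, at least 3.83-fold, and Cldn4, 2.90-fold. The median of the 11 measured biliary markers was -0.40 log2. Their summed levels were 249 and 321, but 226 and 163 without Spp1, so that the direction of the sum rests on that gene. Of 11 mesothelial, stellate and fibroblast markers 5 were measured; 0 passed 2-fold upward and 3 downward, and their median was -1.02 log2. Their summed levels were 188 and 246, but 29.4 and 25.3 without Msln, a mesothelial surface protein gene, which alone carries the higher sum. Lung, salivary and acinar markers, which mark other cells rich in Aqp5, stayed in the background of both arrays for 12 of 12. Of 7 squamous and basal epithelium markers, 3 were measured and 0 passed 2-fold. Of 9 interstitial cell, muscle and glia markers, which include cells rich in Ano1 or Aqp4, 2 were measured: Cnn1 was at least 4.25-fold lower, and the defining genes Kit and Gfap stayed in the background of both arrays. The part of these marker differences in the results for Aqp5, Aqp9 or Ano1 was not tested.

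**Figure D5:**
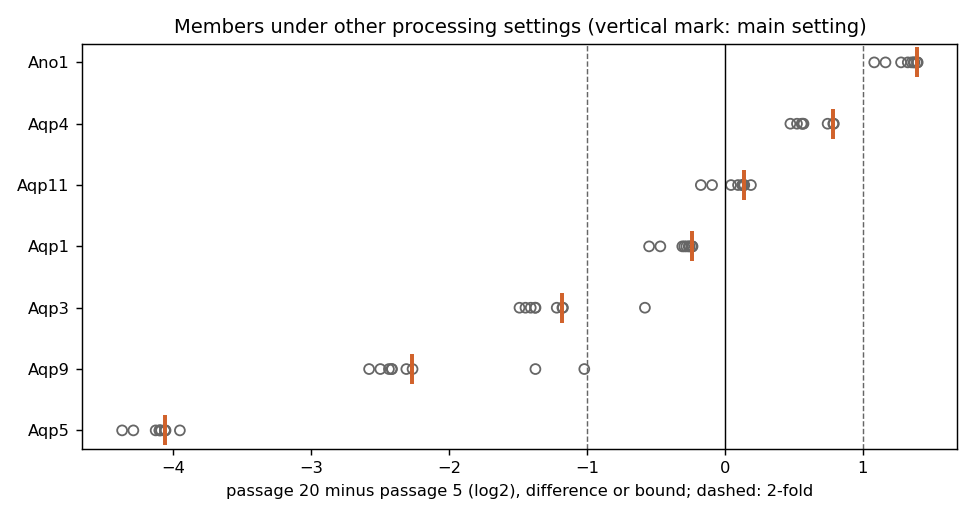
Difference or bound (log2) of the 7 measured members in the main setting (vertical mark) and in each other processing setting that keeps a filter on dim probes (open circles). Aqp5, Aqp9 and Ano1 stay beyond 2-fold in all settings shown that give them a value (the one asking for both arrays above background gives none for Aqp3, Aqp9 and Aqp4), Aqp3 falls short of it in 1, and Aqp11 crosses 0.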

How the data were processed

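Per the labels' protocols, RNA of each passage was amplified and Cy3-labelled, and 1 array was hybridised per passage. Per the file headers, the deposited intensity comes from Feature Extraction version 10.7.3.1 and is background-subtracted and detrended. For some dim spots it is replaced by a surrogate at noise level. Across probes, the authors' deposited log2 table and log2 of the scanner intensity had r = 0.99987 (passage 5) and r = 0.99986 (passage 20) (medians 6.31 in both), so its scale was read as log2; it is not centred by gene, its columns are single arrays and hold no direction, and no source used here names its tool. Both arrays shared a slide and a scan.

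Of 43379 gene spots, 132 were dropped as outliers on either array and 0 were saturated. Log2 signals were averaged per probe and each array's 75th percentile was subtracted. A gene took its brightest probe. Names were checked against RefSeq (GRCm38.p6) over all gene probes, before outlier spots were dropped. Matches were by accession (27660 probes), symbol (5595) or older symbol (477), and 7439 probes stayed unnamed. Genes above background numbered 10752 on both arrays, 685 at passage 5 alone and 367 at passage 20 alone, leaving 8291. A gene was called at 2-fold. Repeat spots gave a 95th percentile of 0.15 log2 for the deviation of 1 spot's difference (116 probes), which is array reading error only; the number of arrays limits the precision.

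Alternatives were normexp (offset 50), quantile, median, cyclic loess, detected-probe and spike-in scaling, the authors' values, other filters, the mean over probes, outliers kept, and thresholds of 1.5-fold and 4-fold. The steps were tested on simulated data with differences set in bright probes only. That hardly tried bounds of genes with a true difference, and it did not try the choice of the brightest probe. Named genes are the 10 members, up to 4 genes with the largest differences per list, and those the text marks. The members, lists and rules were chosen with earlier results of these arrays known. Python 3.11.15, R 4.3.3 and limma 3.58.1 were used.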

Additional observations from a re-analysis of the deposited data

How the results depend on the processing

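Of the members, Ano1, Aqp5 and Aqp1 kept their side of 2-fold in each setting that gave them a value, Aqp9 likewise, and Aqp3 lost its call with normexp correction (-0.58 log2). With normexp 652 genes in all were called at 2-fold, against 1064, and the members' median was -0.44 log2; Aqp4 was then not measured. That median was -0.55 with median centring and -0.47 with spike-in scaling, which moved the median of all genes from 0.07 to -0.24 and -0.16 log2. Calls over all genes, 387 higher and 677 lower, became 195 and 1127 with median centring, 226 and 985 with spike-in scaling and 269 and 843 with cyclic loess. Without a filter on dim probes 2579 genes and 34 pathway genes (16 in the main setting) were called, 2 members were higher, the members' median was -0.051 and 6 of 10 members kept their status. When a probe needed a signal above background at both passages, 695 genes were called, 1 member was lower and the median was -0.051, since only 4 members were then measured. At 1.5-fold 2621 genes, 37 pathway genes and 2 higher members were called, and at 4-fold 221, 4 and 0. No member's called difference reversed. Signal near background limits Aqp3, Aqp4, Aqp8, Aqp9, Cftr and Sctr. No paired analysis was possible because each passage has 1 array, with no number shared between separate samples.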
